A study of Mus musculus with 3 samples.

Results

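Cyclins and cyclin-dependent kinases (CDKs) were followed through 3 RNA-seq libraries of mouse embryos, 1 for each genotype of the *tw18* lethal. The members were chosen by name, as the gene symbols that consist of Ccn, 1 letter and an optional number, or of Cdk, a number and an optional a or b. The rule itself reads symbols only. It gave 43 of the 23421 genes of the table, 24 cyclins and 19 kinases.

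A CDK is a protein kinase that is inactive until a cyclin binds it. One branch of the family drives cell division: D-type cyclins with CDK4 and CDK6 in G1, E-type cyclins with CDK2 at the entry into S phase, A-type cyclins through S phase and B-type cyclins with CDK1 into mitosis. A second branch (cyclins C, H, K, L and T with CDK7, CDK8, CDK9, CDK11, CDK12, CDK13 and CDK19) acts on RNA polymerase II and on splicing, and the epiblast before gastrulation is known for very short cell cycles.

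The libraries came from E6.5 embryos of strain 129/SvEv, obtained by mating *tw18*/+ mice, and held wild type, *tw18*/+ (heterozygous) and *tw18*/*tw18* (homozygous) material. The paper describes the mutant embryos that it stained at this day as slightly younger. Developmental stage and genotype can therefore not be told apart in these libraries. It also names non-inbred backgrounds, which might differ between embryos, as a possible source of variation in the phenotype. *tw18* is a *t* haplotype of Chr 17 with a large deletion that removes many genes, among them *Ppp2r1a*, which encodes the scaffold of protein phosphatase 2A (PP2A), an enzyme that removes phosphates from many CDK substrates. The labels call the tissue epiblast, whereas the study describes RNA from the embryo proper, which includes visceral endoderm, after the extra-embryonic part had been taken off to determine the genotype. How many embryos went into a library is not given in the sources used here. *Ppp2r1a* stood at an FPKM of 146 in wild type, 81.8 in *tw18*/+ and 12.8 in *tw18*/*tw18*. The order is that of the labels. The homozygous value, 8.72% of wild type, is above 0 although the gene is deleted, and its source was not tested. FPKM (fragments divided by the length of the transcript and by the mapped fragments of the library) is a level per length, so that different genes can be set side by side, and it is always a share of its own library. Where 3 values are given without names, they are FPKM in the order wild type, *tw18*/+ and *tw18*/*tw18*. The spacing of low FPKM values gave a depth of 1.42 times that of wild type in *tw18*/+ and 1.39 times in *tw18*/*tw18*. With 1 library per genotype there is no replicate, no test and no p-value for any difference between genotypes. The 95% intervals printed with log2 ratios come from estimated fragment numbers and cover counting error only. Both mutant libraries were compared with the same wild-type library, so their ratios are not independent of each other.

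Of the 43 members, 38 (88.4%) reached an FPKM of at least 1 in all 3 libraries, compared with 47.3% of all genes, and 27 reached at least 10 in all 3. *Ccna1*, the A-type cyclin of the male germ line, and *Cdk15* were listed at 0 in all libraries. *Ccno*, a cyclin of multiciliated cells, and *Ccnb3*, a cyclin of meiosis, stayed under an FPKM of 1 throughout, at 0.425, 0.664 and 0 for *Ccno* and at 0.0477, 0 and 0.16 for *Ccnb3* in wild type, *tw18*/+ and *tw18*/*tw18*. The remaining member, *Cdk8*, was listed at 0 in *tw18*/*tw18* alone.

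The cell division branch held the members of highest level. *Cdk4* ranked 128 among all genes in wild type, 121 in *tw18*/+ and 126 in *tw18*/*tw18*, at levels of 479, 548 and 387. After it in wild type came *Ccnb1* (150), *Ccna2* (116), *Ccne1* (83.9) and *Ccnk* (65.9). *Cdk1* and *Cdk2*, the other kinases of the division cycle at high level, were at 49.96 and 40.9 there. *Cdk6*, which shares the D-type cyclins with *Cdk4*, stood at 7.33 in wild type, 5.61 in *tw18*/+ and 8.11 in *tw18*/*tw18*, so *Cdk4* made up 97.9% to 99.0% of the summed level of both kinases.

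**Figure D1:**
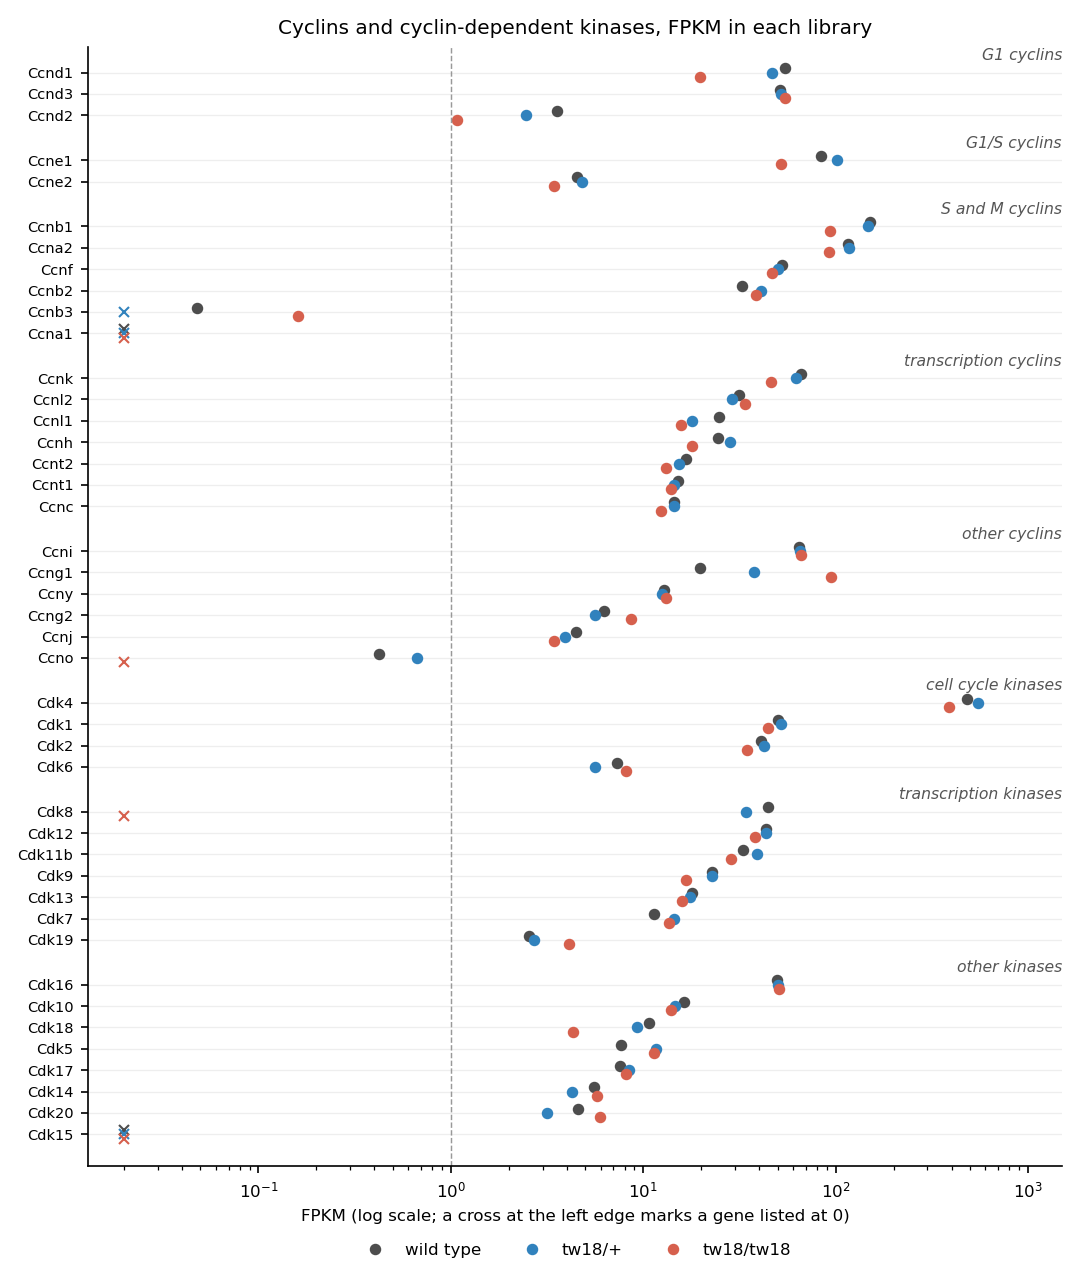
FPKM (log axis) of each of the 43 members in wild type (grey), tw18/+ (blue) and tw18/tw18 (red), 1 library each, grouped by role, with crosses at the left edge for genes listed at 0 and a dashed line at an FPKM of 1. The 3 points lie close together for most members, while Ccng1, Ccnd1, Ccnd2 and Cdk18 are spread apart and Cdk8 has a cross for tw18/tw18.

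A gene was counted as higher or lower in a pair of libraries when the log2 ratio of its FPKM reached 1 in that direction, without a pseudocount, both values were above 0 and the higher was at least 1. In *tw18*/*tw18* against wild type 38 members could be compared, and 1 was higher (*Ccng1*), where 13.8% of the 12625 genes compared were higher. A further 3 members were lower (*Ccnd1*, *Ccnd2* and *Cdk18*), where 6.42% of all genes were lower. In *tw18*/+ against wild type 0 of 39 members were higher, beside 4.0% of all genes, and 0 were lower, beside 4.66%. In *tw18*/*tw18* against *tw18*/+ the same 4 genes passed, 1 of 38 higher (all genes 14.3%) and 3 of 38 lower (all genes 5.3%). The shares are based on few members and lie near those of all genes for the lower direction. They also depend on level. Among genes with a mean FPKM of at least 10, 4.53% were higher in *tw18*/*tw18* against wild type, beside 1 of 28 members. There 2.79% were lower, beside 1 of 28 members. In *tw18*/+ against wild type those shares were 0.369% and 0.707%, beside 0 of 29 members each. Between the mutant libraries they were 4.71% and 2.25%, beside 1 and 1 of 28 members. With the libraries rescaled to equal FPKM sums, the last pair had 2 members higher (*Ccng1* and *Cdk20*) and 1 lower (*Ccnd1*).

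Most members differed little. In *tw18*/*tw18* against wild type 28 of 38 (73.7%) had a log2 ratio within 0.5 of 0, compared with 55.0% of all genes, and in *tw18*/+ against wild type 35 of 39 (89.7%) did, compared with 76.9%. Both gaps were smaller among genes of higher level. Of the 6227 genes whose mean FPKM was 10 or more, 69.6% lay within 0.5 in *tw18*/*tw18* against wild type, and 21 of the 28 members at that level (75.0%) did. In *tw18*/+ against wild type 92.7% of these genes did, beside 27 of 29 members (93.1%), so the gap was nearly absent there. The members' median log2 ratio was -0.18 in *tw18*/*tw18* against wild type (all genes -0.016), but it was 0.032 when the libraries were rescaled to equal FPKM sums, so the sign of the median depends on the scaling. That rescaling adds 0.21 to each of these ratios. It left the 4 calls in place and turned the sign of *Ccnf*, *Ccnt1*, *Cdk1*, *Cdk11b*, *Cdk12* and *Cdk13*. At a mean FPKM of at least 10 the median of all genes was itself -0.15, beside -0.19 for the members.

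**Figure D2:**
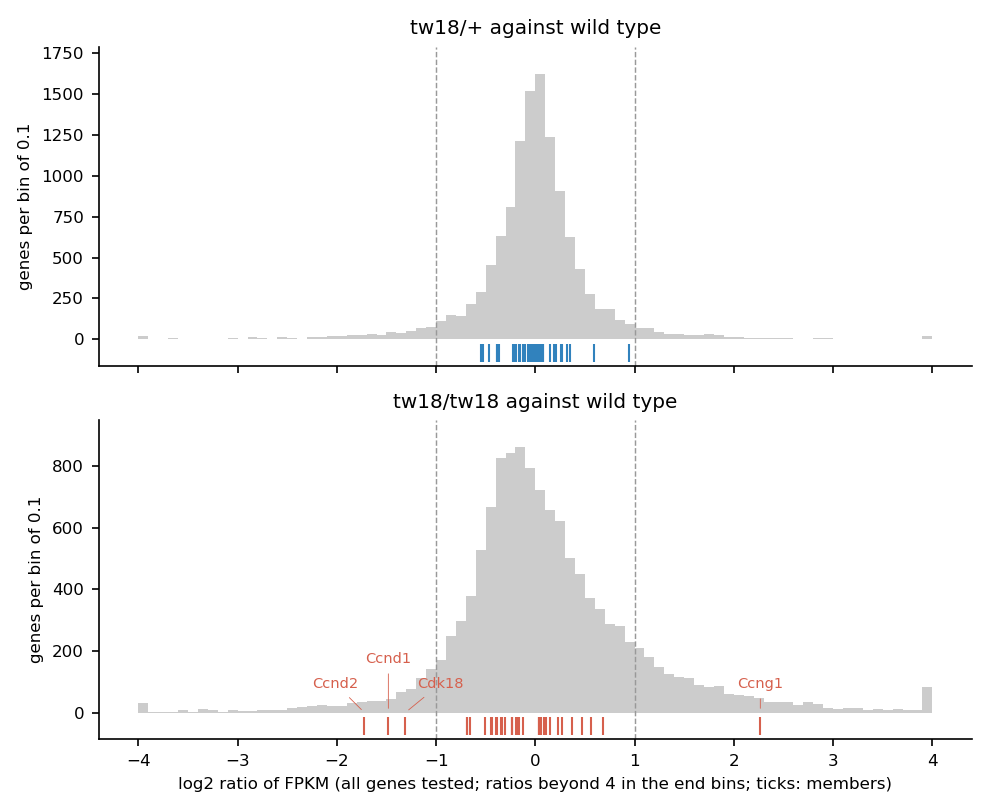
Number of genes per bin of 0.1 in the log2 ratio of FPKM, for tw18/+ against wild type (top) and tw18/tw18 against wild type (bottom), over all genes compared (grey), with a tick below for each member and dashed lines at a log2 ratio of 1 in either direction. The members' ticks sit within the dashed lines at the top, and 4 named members lie outside them at the bottom, where the grey distribution is also wider.

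The libraries also differed in markers of the cell types they could hold. The counts below are for *tw18*/*tw18* against wild type, where 13.8% of all genes were higher and 6.42% lower. The 10 epiblast markers were present in all libraries, with *Pou5f1* at 628, 721 and 274, and 4 of 10 were lower in *tw18*/*tw18* than in wild type (summed FPKM 1944, 2093 and 1099, median log2 ratio -0.71). The 13 visceral endoderm markers had a sum of 1023, 1009 and 1369 and a median log2 ratio of 0.46, and 0 were higher or lower. Of 14 markers of extra-embryonic ectoderm and trophoblast 9 were higher and 1 lower (sum 305.5, 271.4 and 580.0). Of 12 of decidua and uterine stroma, which are maternal, 10 were higher and 1 lower. Their sum was 1728, 385.3 and 1285, of which *Prl8a2* alone made up 1504, 155 and 377, and *Col1a1* stood at 35.9, 32.04 and 174. Of 9 endothelial markers 6 were higher (sum 44.8, 29.2 and 101.7), and of 5 immune markers compared 3 were higher. The sum over all 10 immune markers measured, including those not compared, was 11.98, 10.2 and 28.98. Of 4 erythroid genes compared 3 were higher and 1 lower, with *Hbb-bh1* and *Hbb-y* at 0 in all libraries, and *Hba-a1* and *Hba-a2* are near-identical copies whose values are uncertain.

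The lower members (*Ccnd1*, *Ccnd2* and *Cdk18*) and the higher member (*Ccng1*) thus come from a library that also differed in cell type markers. In *tw18*/*tw18* against wild type 4 of 10 epiblast markers were lower and 0 higher. Of 14 trophoblast markers 9 were higher and 1 lower, and of 12 decidual markers 10 were higher and 1 (*Prl8a2*) lower. The decidual sum was below wild type with *Prl8a2* and above it without. The part of these markers in the members' values was not tested. In such bulk libraries fewer cells of a type and less RNA per cell cannot be told apart. In *tw18*/+, where *Ccng1* was at a log2 ratio of 0.94 above wild type, the epiblast markers had a median log2 ratio of 0.10, with 0 of 10 higher or lower, and the decidual markers were divided. Of 12, 1 was higher (*Mgp*, 16.2, 43.03 and 180.2) and 1 lower (*Prl8a2*), and the sum over the 11 without *Prl8a2* was 224, 230.0 and 907. Of 13 visceral endoderm markers 0 were higher or lower, and of 13 trophoblast markers 0 were higher and 2 lower. Of 8 endothelial markers compared 2 were higher and 3 lower. Of 3 erythroid genes 2 were higher and 0 lower, and of 3 immune markers 0 were higher or lower. Over all genes 4.0% were higher and 4.66% lower in this pair. The part of these markers in the value of *Ccng1* was not tested.

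D-type cyclins are the G1 cyclins whose transcription answers to growth and patterning signals, and *Ccnd1* is a known target of WNT signalling. *Ccnd1* (GRCm38, GENCODE annotation, Chr 7, 144929931 to 144939925) was measured at 54.7 in the wild-type library, 46.8 in *tw18*/+ and 19.6 in *tw18*/*tw18*, from about 2902, 3512 and 1445 fragments. The homozygous library was 2.79-fold lower than wild type, a log2 ratio of -1.48 (-1.57 to -1.39), and the heterozygous library lay slightly below wild type at -0.23 (-0.30 to -0.16). *Ccnd2* (Chr 6, 127125162 to 127152193), at low level in all libraries, followed the same order at 3.55, 2.46 and 1.075. Its log2 ratio against wild type was -1.72 (-2.03 to -1.43) in *tw18*/*tw18* and -0.53 (-0.76 to -0.30) in *tw18*/+. *Ccnd3*, the third gene of the type, was level across the genotypes at 51.3, 52.1 and 54.4, with a log2 ratio of 0.09 (-0.01 to 0.18) in *tw18*/*tw18*.

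The D-type cyclins thus differed in composition as well as in sum. *Ccnd3* supplied 46.8% of their summed FPKM in wild type, 51.4% in *tw18*/+ and 72.5% in *tw18*/*tw18*, while *Ccnd1*, close to *Ccnd3* in wild type, supplied 46.2% in *tw18*/+ and 26.1% in *tw18*/*tw18*. The sum was 109.6, 101.3 and 75.1. The kinases that bind these cyclins, *Cdk4* and *Cdk6*, summed to 486.5, 553.3 and 394.9. The summed kinase level per summed cyclin level was therefore 4.44 in wild type, 5.46 in *tw18*/+ and 5.26 in *tw18*/*tw18*, higher in both mutant libraries. Shares and ratios within 1 library do not depend on its scaling.

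Reads of neighbouring genes can enter these values, since whether fragments were counted by strand is not given in the sources used here. Exons of LTO1 on the opposite strand, listed in the table as *Oraov1*, overlap 23.4% of the exonic bases of *Ccnd1*, and *Oraov1* had an FPKM of 4.51, 3.44 and 6.23. Exons of *Tspan31* overlap 19.7% of those of *Cdk4*, and its FPKM was 59.3, 65.5 and 60.1. Neither of these was lower in *tw18*/*tw18* than in wild type. *Exosc9*, whose exons overlap 12.5% of those of *Ccna2*, was at 28.9, 25.95 and 17.25, below wild type in *tw18*/*tw18* at a log2 ratio of -0.74. The overlaps of *Ccnd2* (3.95%) and *Cdk18* (1.81%) were small, and *Ccng1* had none.

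**Figure D3:**
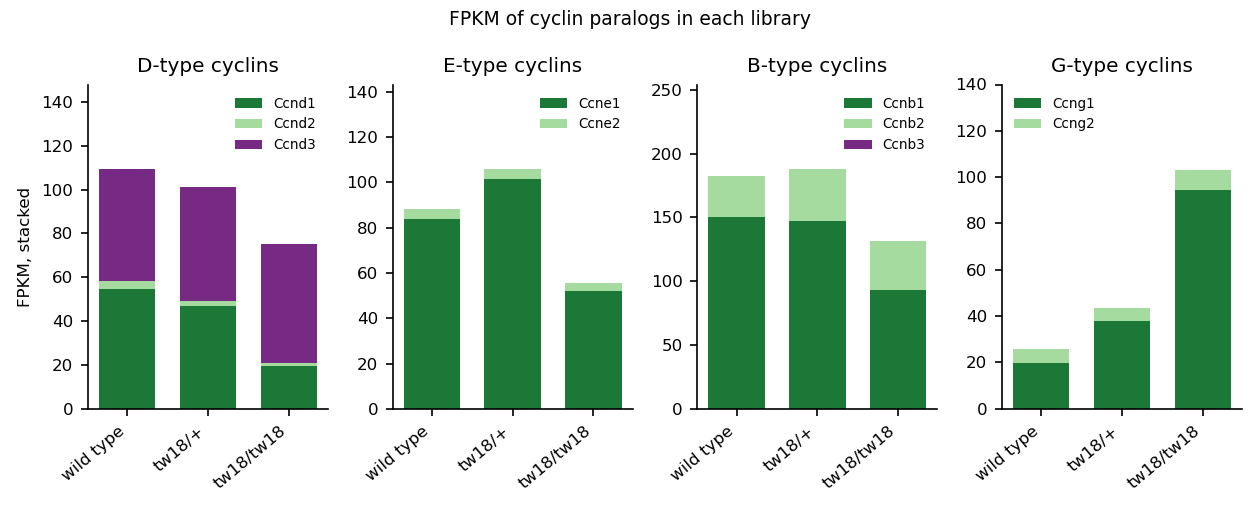
Stacked FPKM of the D-type, E-type, B-type and G-type cyclins in the wild type, tw18/+ and tw18/tw18 libraries (1 each, with a separate axis from 0 for each panel). In tw18/tw18 Ccnd3 makes up 72.5% of the D-type sum and Ccng1 91.6% of the G-type sum, while the E-type bar stays almost wholly Ccne1 in each library.

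E-type cyclins open S phase with CDK2. *Ccne1* stood at 83.9 in wild type, 101.3 in *tw18*/+ and 51.97 in *tw18*/*tw18*, highest in the heterozygous library and lowest in the homozygous one. Its log2 ratio was -0.69 (-0.78 to -0.60) in *tw18*/*tw18* against wild type and 0.27 (0.20 to 0.35) in *tw18*/+ against wild type, and it reached -0.96 between the mutant libraries, short of the threshold of 1. *Ccne2*, at 4.54, 4.78 and 3.44, supplied between 4.51% and 6.21% of the E-type sum. *Cdk2* was at 40.9, 42.2 and 34.7, a log2 ratio of -0.24 (-0.34 to -0.13) in *tw18*/*tw18*. Of these 3 genes, each had its lowest value in *tw18*/*tw18*.

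Among the cyclins of S phase and mitosis, *Ccna2* (partner of CDK2 and CDK1) stood at 116, 118 and 91.95 in the order wild type, *tw18*/+ and *tw18*/*tw18*. *Ccnb1*, the main mitotic cyclin by level, stood at 150, 147 and 93.1, a log2 ratio of -0.69 (-0.75 to -0.63) in *tw18*/*tw18*. *Ccnb2*, its paralog, was at 32.7, 40.9 and 38.3, with a log2 ratio of 0.23 (0.09 to 0.37). The paralogs thus stood on opposite sides of wild type in *tw18*/*tw18*, and *Ccnb2* supplied 17.9%, 21.7% and 29.1% of the B-type sum in the same order. Of the 50-base words of *Ccnb1* transcripts, 23.4% also occur in pseudogenes such as *Ccnb1-ps*, so its level is less certain than that of *Ccnb2*, for which 0 such words were found. *Ccnf*, which encodes a substrate receptor of a ubiquitin ligase and is not a CDK partner, stood at 52.8, 50.4 and 46.9. It lies on Chr 17 (24222198 to 24251484), the chromosome of the deletion, as *Ccnd3* does (47505051 to 47599691). Both lie outside the interval that the paper gives for the deletion. Neither was lower in *tw18*/+ than in wild type by more than 0.07 on the log2 scale.

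*Cdk1*, the kinase of mitotic entry, is the member whose upstream sequence held the most of the cell cycle motifs searched, and it was level across the genotypes at 49.96, 51.8 and 44.7, with a ratio on the log2 scale of -0.16 (-0.23 to -0.09) in *tw18*/*tw18* that turns positive with equal FPKM sums. Its RefSeq promoter (GRCm38.p6, minus strand, chr10:69352863-69353162, 250 bases before to 50 after the start) is printed 5′ to 3′ to show where these letters lie, with an E2F motif (TTTCGCGC) and each CHR motif (TTTGAA) in capitals.
Cdk1: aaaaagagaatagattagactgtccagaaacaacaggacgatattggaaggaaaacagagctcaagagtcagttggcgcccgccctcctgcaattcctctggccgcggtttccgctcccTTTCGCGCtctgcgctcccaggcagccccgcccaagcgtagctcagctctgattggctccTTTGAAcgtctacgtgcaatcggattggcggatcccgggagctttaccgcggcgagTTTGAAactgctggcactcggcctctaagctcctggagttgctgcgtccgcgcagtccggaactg
The E2F match starts 131 bases before the start of transcription, and the CHR matches 71 and 15 bases before it. E2F factors bind promoters of S phase genes, and the CHR is an element of mitotic genes.

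Of the cyclins outside the division and transcription branches, *Ccng1* differed most. *Ccng1* (Chr 11, 40748552 to 40755311) encodes cyclin G1, a known target of p53 that binds PP2A. Its FPKM was 19.7 in wild type, 37.8 in *tw18*/+ and 94.6 in *tw18*/*tw18*, from about 977, 2659 and 6533 fragments. The homozygous library was 4.81-fold above wild type, a log2 ratio of 2.27 (2.17 to 2.37), and the heterozygous library lay between them at 0.94 (0.84 to 1.05), just under the threshold. *Ccng1* had no exon overlap with another gene and shared 0% of its 50-base words. It ranked 3822 by level among all genes in wild type and 628 in *tw18*/*tw18*, and its ratio ranked 397 among the 12625 compared. *Ccng2*, the paralog, stood at 6.24, 5.59 and 8.64, so *Ccng1* supplied 75.9%, 87.1% and 91.6% of the cyclin G sum.

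The promoter of *Ccng1* (RefSeq, GRCm38.p6, minus strand, chr11:40755237-40755536) is printed in the same way, since it was the only one of the members' promoters in the table with a p53 half-site, which stands in capitals.
Ccng1: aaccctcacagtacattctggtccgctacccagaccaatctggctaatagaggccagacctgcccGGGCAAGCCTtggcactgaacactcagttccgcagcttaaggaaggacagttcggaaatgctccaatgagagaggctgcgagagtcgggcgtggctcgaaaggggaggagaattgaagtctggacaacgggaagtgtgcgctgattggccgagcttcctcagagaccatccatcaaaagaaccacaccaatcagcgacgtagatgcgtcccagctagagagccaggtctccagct
The half-site begins 185 bases before the start. Such a half-site, on either strand, is held by 8.36% of all 32851 promoters of that length in the table, so a match in 1 of the 36 member promoters (2.78%) is below the share of all promoters.

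The other motifs were counted in the same way. RefSeq promoters were matched by symbol for 34 of the 43 members (36 promoters, since *Ccnd3* and *Cdk16* have 2 each). Those not matched were *Ccna2*, *Ccnd1*, *Ccnd2*, *Ccne2*, *Ccnh*, *Ccny*, *Cdk5*, *Cdk17* and *Cdk19*. The E2F motif (TTTCCCGC, TTTCGCGC, TTTGCCGC or TTTGGCGC, on either strand) was found in 2 member promoters (5.56%; all promoters 2.26%), those of *Cdk1* and *Cdk2*. The CHR was found in 5 (13.9%; all 17.9%), those of *Ccnb2*, *Ccnf*, *Ccni*, *Cdk1* and *Cdk16*. The CRE (TGACGTCA) was found in 1 (2.78%; all 1.79%), that of *Ccnl1*, and the TCF motif (ATCAAAG or TTCAAAG), which in its second form overlaps the CHR on the other strand, in 3 (8.33%; all 8.65%), those of *Ccnj*, *Cdk1* and *Cdk4*. Apart from *Ccng1*, no gene with a match passed the threshold in any pair of libraries.

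*Cdk8*, a kinase of the Mediator complex, which links transcription factors to RNA polymerase II, lies on Chr 5 (146231230 to 146302874). It was measured at 44.5 FPKM in the wild-type library and 34.1 in *tw18*/+ and was listed at 0 in *tw18*/*tw18*. The wild-type and heterozygous values stand for about 1857 and 2011 fragments, and the log2 ratio between them was -0.39 (-0.48 to -0.30). An exact 0 in a Cuffdiff table can be a failed estimate, and such zeros beside high values occurred in every library. Taking genes that reached 10 FPKM in both other libraries, *Actr3* was listed at 0 in wild type (1 of 5584), *Dnmt3a* in *tw18*/+ (1 of 5582), and *Cdk8* and *Lars2* in *tw18*/*tw18* (2 of 5739). For this reason *Cdk8* entered no count of lower genes and has no ratio for *tw18*/*tw18*. Its neighbours on Chr 5 were measured in all libraries, *Rnf6* at 8.597, 8.92 and 14.6 and *Wasf3* at 5.72, 5.54 and 2.53.

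*Cdk19*, the paralog that can take the place of *Cdk8* in Mediator, was at low level, at 2.56, 2.705 and 4.11, with a ratio on the log2 scale of 0.69 (0.45 to 0.92) in *tw18*/*tw18* against wild type. *Ccnc*, the cyclin of both kinases, stood at 14.5, 14.4 and 12.4, a log2 ratio of -0.23 (-0.38 to -0.09) in *tw18*/*tw18*. Of 9 other genes of the Mediator complex 1 was higher in *tw18*/*tw18* than in wild type (all genes 13.8%) and 0 were lower (all genes 6.42%). The higher gene was *Med12l* (0.643, 0.446 and 1.32). The median log2 ratio of the 9 genes was -0.091, and 0.12 with equal FPKM sums.

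The other kinases of transcription were all within 0.5 of wild type on the log2 scale in both mutant libraries. CDK9 with cyclin T releases paused RNA polymerase II. *Cdk9* stood at 22.8, 22.8 and 16.7, while *Ccnt1* had 15.2, 14.5 and 13.9 and *Ccnt2* 16.6, 15.4 and 13.1, so the cyclins T were present at like levels (*Ccnt1* 47.8% to 51.6% of their sum). CDK12 and CDK13 with cyclin K act further along the gene. *Cdk12* supplied 70.6%, 71.1% and 70.4% of the sum of both kinases, nearly the same share in each genotype, at levels of 43.3, 43.2 and 37.99 for *Cdk12* and 17.98, 17.5 and 15.95 for *Cdk13*. *Ccnk* stood at 65.9, 62.5 and 46.2, a log2 ratio of -0.51 (-0.59 to -0.43) in *tw18*/*tw18*.

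CDK7 and cyclin H form the kinase part of TFIIH, which opens promoters and activates other CDKs. *Cdk7* was at 11.3, 14.5 and 13.6 and *Ccnh* at 24.4, 28.1 and 18.0, so the kinase was above wild type in *tw18*/*tw18* (log2 ratio 0.27) and its cyclin below (-0.44). CDK11 and the cyclins L act in splicing. *Cdk11b* was at 32.8, 39.2 and 28.7. *Ccnl1* was at 24.7, 17.9 and 15.6, below wild type in both mutant libraries (-0.46 in *tw18*/+, -0.66 in *tw18*/*tw18*), and *Ccnl2* at 31.4, 28.8 and 33.6, so *Ccnl2* supplied 56.0%, 61.6% and 68.3% of the cyclin L sum. None of these genes passed the threshold.

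The remaining kinases are less well known in the embryo. *Cdk18* (Chr 1, 132112237 to 132139684), of the PCTAIRE group with *Cdk16* and *Cdk17*, stood at 10.7, 9.26 and 4.297, from about 662, 815 and 371 fragments. It was 2.48-fold lower in *tw18*/*tw18* than in wild type, a log2 ratio of -1.31 (-1.50 to -1.13), and -0.20 (-0.35 to -0.05) in *tw18*/+. *Cdk16* was level at 49.4, 50.1 and 50.8, and *Cdk17* at 7.61, 8.41 and 8.17, so of the 3 it was *Cdk18* that was lower, with a share of the group of 15.7%, 13.7% and 6.79%.

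*Cdk5*, best known in neurons, was above wild type in both mutant libraries at 7.71, 11.6 and 11.4, with a log2 ratio of 0.59 (0.36 to 0.83) in *tw18*/+ and 0.57 (0.33 to 0.81) in *tw18*/*tw18*. *Cdk20*, a kinase of cilia, was lowest in *tw18*/+ at 4.60, 3.15 and 5.94. Its ratio between the mutant libraries, 0.91 (0.69 to 1.14), lay under the threshold as deposited and above it with equal FPKM sums. *Cdk14* (5.51, 4.28 and 5.73) and *Cdk10* (16.4, 14.6 and 13.9), with *Ccny* (12.9, 12.5 and 13.2), *Ccni* (64.7, 65.5 and 66.4) and *Ccnj* (4.48, 3.90 and 3.43), stayed within 0.4 of wild type. *Ccny*, the partner of *Cdk14* and *Cdk16*, and *Ccni* were among the members closest to wild type in *tw18*/*tw18*, at log2 ratios of 0.035 and 0.037.

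**Figure D4:**
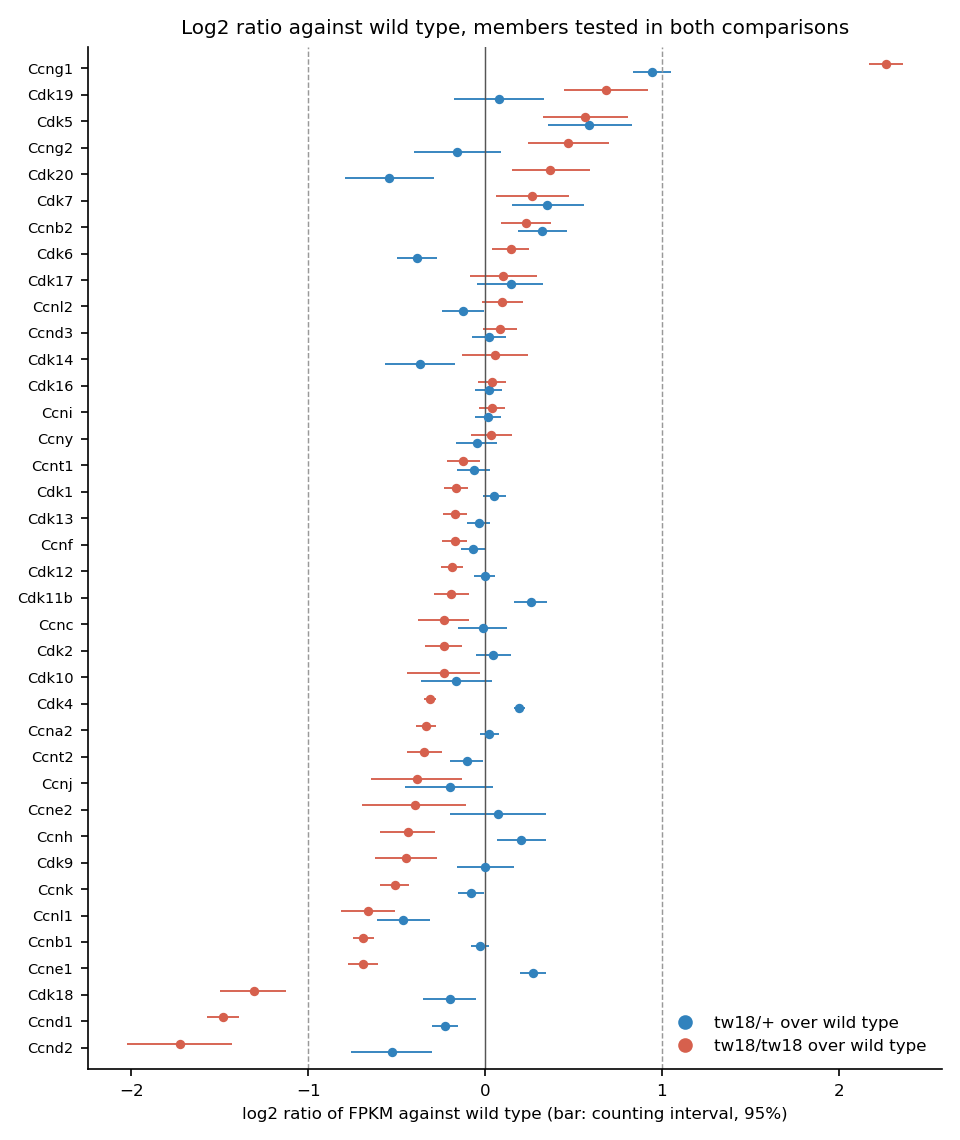
Log2 ratio of FPKM against wild type for tw18/+ (blue) and tw18/tw18 (red), for the 38 members compared in both, ordered by the tw18/tw18 ratio, with bars for the 95% counting interval (counting error only, 1 library per genotype) and dashed lines at 1 in either direction. Ccng1 stands at 2.27 in tw18/tw18 and at 0.94 in tw18/+, and the red points of Ccnd2, Ccnd1 and Cdk18 lie below -1. With equal FPKM sums the red points between -0.21 and 0 would turn positive, while each blue point would shift by -0.035.

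The genes that control the cyclins and kinases were taken from written lists. For each list below, the shares of all genes in *tw18*/*tw18* against wild type were 13.8% higher and 6.42% lower. Of the CDK inhibitors, 6 could be compared in *tw18*/*tw18* against wild type, with a median log2 ratio of 0.59 (all genes -0.016). *Cdkn1a*, which encodes p21, was higher at 5.88, 7.11 and 27.3, a log2 ratio of 2.21, and *Cdkn2d*, which encodes the CDK4 and CDK6 inhibitor p19, was lower at 6.899, 6.04 and 2.59. *Cdkn1c*, which encodes p57, stood at 10.7, 8.93 and 20.6, under the threshold at 0.94. *Cdkn1b*, which encodes p27, was level at 10.2, 10.98 and 10.3.

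Of 14 other CDK regulators compared, 1 was higher, *Cdk5r1*, the activator of CDK5 (1.05, 0.577 and 2.42), and 1 lower, *Ccnjl*, a cyclin J paralog outside the naming rule (8.23, 8.37 and 3.91). *Cks1b* and *Cks2*, the small subunits of CDK complexes, stood at 179, 214.5 and 120.3 and at 143, 175 and 103. Both were highest in *tw18*/+ and lowest in *tw18*/*tw18*, the order seen for *Ccne1*, *Ccna2* and *Cdk4*. Of 20 genes of the RB and E2F family 1 was higher, *Rbl2*, a pocket protein of resting cells (1.44, 1.14 and 4.56), and 1 lower, *E2f5* (30.1, 23.3 and 12.3). The median log2 ratio was -0.44 over the regulators and -0.10 over the RB and E2F genes, where it is 0.11 at equal FPKM sums.

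Genes of S phase and mitosis differed between *tw18*/*tw18* and wild type by less than the threshold. Of 20 replication genes 0 were higher and 0 lower in *tw18*/*tw18*, with a median log2 ratio of -0.43, and 17 of 20 lay below 0 (15 of 20, with a median of -0.22, at equal FPKM sums). Examples from the lower end are *Pcna*, the clamp of the replicative polymerase (336, 362 and 192), and *Mcm3*, a subunit of the replicative helicase (161, 167 and 90.5). Their log2 ratios were -0.81 and -0.83. *Rrm2* went the other way at 220, 211 and 294 (0.42), and *Rrm1* and *Cdc45* were slightly above wild type too. Of 20 mitosis genes 0 were higher and 0 lower, with a median of -0.21, which is 0.002 at equal FPKM sums. *Mki67*, the proliferation marker, stood at 64.1, 73.3 and 68.2. Of 16 genes of the ligases that degrade cyclins 0 were higher and 0 lower, with a median of -0.11 (0.099 at equal sums).

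Of 12 genes that act with CDK9 and CDK12 in elongation, 1 was lower, *Hexim2*, an inhibitor of CDK9 (4.204, 1.802 and 2.06), with a median of -0.043 (0.17 at equal sums). Of 7 genes of the TFIIH core 1 was lower, *Ercc2*, a helicase (8.43, 5.85 and 3.81), with a median of -0.25 (-0.037 at equal sums) and all 7 below 0 as deposited but 5 at equal sums.

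Since *Ccng1* and *Cdkn1a* are known p53 targets, 21 such genes were listed after the members' values had been seen, so that this list is a description. Of 19 that could be compared in *tw18*/*tw18* against wild type, *Cdkn1a* included, 8 were higher (all genes 13.8%), 0 lower and 0 below 0, with a median log2 ratio of 0.83 (all genes -0.016). In the same library the decidual, endothelial and trophoblast lists had medians of 2.22, 1.66 and 1.29, and their part in these values was not tested. *Phlda3*, an inhibitor of AKT, stood at 6.32, 11.9 and 36.5, the same order over the genotypes as *Ccng1*, and *Plk2* at 0.646, 2.13 and 13.8. *Mdm2*, the ligase of p53, was under the threshold at 26.65, 30.3 and 47.3, and *Bax*, which acts in apoptosis, was near wild type at 58.1, 54.8 and 61.1. In *tw18*/+ against wild type 1 of 19 was higher and 1 lower, with a median of 0.23.

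**Figure D5:**
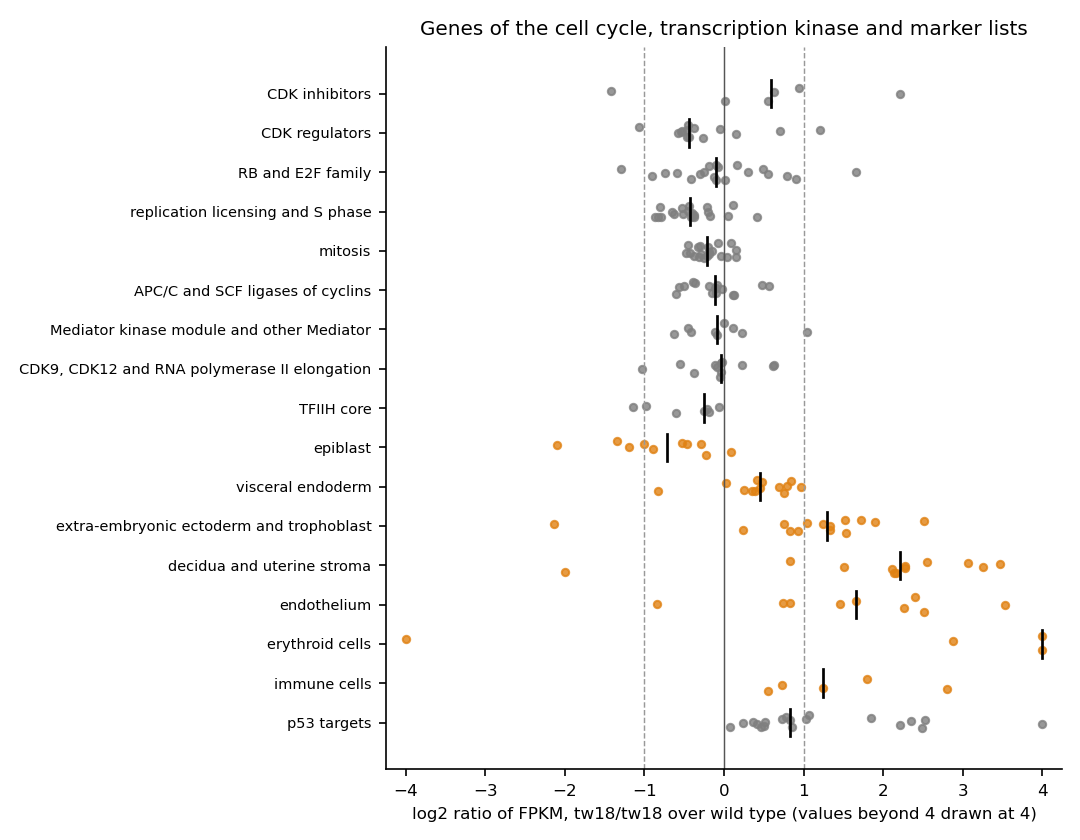
Log2 ratio of FPKM in tw18/tw18 over wild type for the genes of each list (points, values beyond 4 drawn at 4) with the median of each list as a black bar, cell cycle, transcription and p53 lists in grey and cell type markers in orange. Replication genes lie within 1 of 0, with a median of -0.43 as deposited and -0.22 at equal FPKM sums, while the decidua and uterine stroma list has a median of 2.22 and the epiblast list one of -0.71.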

How the data were processed

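Processed values of 3 libraries, 1 per genotype, were used. Per the labels, total RNA was made into libraries with the TotalScript kit, random hexamers and actinomycin D. The authors mapped 50 bp paired-end reads to mm10 with TopHat and deposited the FPKM values of Cuffdiff (Cufflinks 2.2.1 and Bowtie 1.0.0 in the submitters' processing notes). Genotypes came from the labels. The members and gene lists were chosen with earlier results of these data known, and the p53 target list was written last.

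Log2 ratios were computed without a pseudocount in Python 3.11.15 (pandas 2.3.3, numpy 2.4.6, scipy 1.17.1), and plots with matplotlib 3.10.9. Ratios needed both values above 0 and the higher at an FPKM of at least 1, and the threshold was a log2 ratio of 1. With 1 library per genotype no test was run. Depth came from low FPKM values of genes with 1 transcript, which step by 1 fragment: 78.7% to 80.4% of them lay within 0.2 of a whole number, so fragment numbers are estimates. They use the longest annotated coding transcript less 150 bases, and PCR copies are not independent molecules. The FPKM sums were 444064, 455078 and 383409 in wild type, *tw18*/+ and *tw18*/*tw18*, and 11859, 11879 and 12402 genes reached an FPKM of 1. Named in full are members past the threshold in any pair, members listed at 0 in 1 library, the 5 of highest wild-type FPKM and the paralog groups. The other members were added for completeness, and list genes under the threshold are examples chosen after their values were seen. Positions and overlaps came from GENCODE M21 (GRCm38) and promoters from RefSeq. The alternatives were pseudocounts, filters, zeros counted and 2 rescalings.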

Additional observations from a re-analysis of the deposited data

How the results depend on the processing

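No paired analysis was possible because each genotype has 1 library, and for the same reason no library could be left out. In *tw18*/*tw18* against wild type, *Ccng1* stayed higher and *Ccnd1* and *Cdk18* lower under each alternative tried. *Ccnd2* stayed lower in those that kept it, and a filter at an FPKM of 5 left it out. Without a filter 2 members were higher, the second being *Ccnb3*. Counting genes listed at 0 made 4 members lower, with *Cdk8* (6.94% of all genes). With the libraries at equal FPKM sums the median of the members was 0.032 against wild type and 0.087 against *tw18*/+, the opposite sign of the values as deposited, and centring on the median ratio gave -0.13 and -0.11. In *tw18*/*tw18* against *tw18*/+, equal sums gave 2 members higher (*Ccng1* and *Cdk20*, 19.3% of all genes) and 1 lower (*Ccnd1*, 3.3%), where 1 and 3 were found as deposited, and a pseudocount of 1 also left 1 lower (*Ccnd1*, 2.53%). By construction these shift every ratio alike or shrink those of low genes. With that pseudocount the share of *Ccnd3* in *tw18*/*tw18* was 71.0%. In *tw18*/+ against wild type the counts stayed at 0. For *Ccnd1*, *Ccnd2*, *Ccng1* and *Cdk18* 0 of 69 ratios under alternatives changed sign. Filters leave a ratio as it is and a pseudocount cannot turn its sign. Equal sums shift ratios by 0.21 in *tw18*/*tw18* against wild type and by -0.035 in *tw18*/+ against wild type. Between the mutant libraries the shift is 0.25, and centring on the median shifts ratios less. Each ratio of these genes was larger in size than the shift of its pair, so no alternative could have turned a sign. Equal sums turned the sign of 6 other members in *tw18*/*tw18* against wild type and of 14 between the mutant libraries. The precision of members at low FPKM, such as *Ccnd2*, is limited by depth, and what stands between genotypes and single libraries cannot be told apart.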

Other observations

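Some genes of the written lists differed in pairs not described so far. Between the mutant libraries, 4 of 7 CDK inhibitors were higher in *tw18*/*tw18* than in *tw18*/+ and 1 was lower, where 14.3% of all genes were higher and 5.3% lower. In this pair 12 of 12 decidual, 9 of 9 endothelial and 7 of 13 trophoblast markers were higher too, and their part in these values was not tested. Besides *Cdkn1a*, these were *Cdkn1c* (log2 ratio 1.20), *Cdkn2a*, which encodes p16 and p19ARF (FPKM 0, 0.502 and 1.403 in wild type, *tw18*/+ and *tw18*/*tw18*), and *Cdkn2c*, which encodes p18. *Cdkn2c* was lowest in *tw18*/+ at 2.29, 0.75 and 3.35, so it was lower there than in wild type (-1.61) and close to wild type in *tw18*/*tw18* (0.55). *Cdc25b*, a phosphatase that activates CDKs, was also lowest in *tw18*/+ at 7.77, 5.78 and 12.7.

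Of the RB and E2F genes, *E2f2* stood above wild type in both mutant libraries, at 0.932, 1.89 and 1.74, and passed the threshold in *tw18*/+ alone (1.02, compared with 0.90 in *tw18*/*tw18*). *Hexim2* was lower than wild type in both (-1.22 in *tw18*/+ and -1.03 in *tw18*/*tw18*), while *Hexim1*, its paralog, stood at 10.01, 8.603 and 15.4. Both mutant libraries share the wild-type library in these comparisons, and genes at an FPKM near 1 rest on few fragments.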
